A study of Mus musculus with 6 samples.

Results

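The proteasome subunits and ubiquitin enzymes represented on a mouse expression array were followed in myoblasts during the first day of differentiation. Members were chosen by name alone: probe sets assigned to a single gene symbol that begins with Psma to Psmg, Ube2, Uba, Usp, Fbxo, Fbxw or Cul and then a number or, for Ube2, any ending. The probe set with the highest mean signal over the 6 arrays stood for its gene. The rule found 115 genes among the 8251 genes with a single symbol on the array. Classed by symbol, they comprised 44 proteasome genes, 3 activating enzymes (E1) of ubiquitin or ubiquitin-like proteins, 21 conjugating enzymes (E2), 18 ligase components and 27 deubiquitinases. Another 2 were partner proteins, Psmc3ip and Psme3ip1, which match by name but are no proteasome subunits. Whether each product has the activity of its class was not examined. Of these 115 genes, 96 passed a filter on mean signal and were tested among 4822 genes. The members below that filter were Psmb8, Psmb9, Psmc4, Psmd2, Psmc3ip, Uba1y, Uba7, Ube2e3, Ube2t, Ube2w, Cul7, Fbxo8, Fbxo15, Usp12, Usp17la, Usp17lc, Usp18, Usp29 and Usp42.

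C2AS12 cells, a myoblast line derived from C2 cells, had been infected with adenovirus that encodes p300. This coactivator acetylates histones and other proteins and is recruited by many transcription factors. The 3 treatments were doxycycline added to wild-type p300, mutant p300 and wild-type p300 alone. The submitters give apoptotic death as the outcome of the first 2 and survival as that of the last. Each treatment was measured after 24 h in low-serum differentiation medium and at 0 h, before that medium was added, with 1 array of total RNA for each treatment and time. All groups were infected. The mutation in p300 and the action of doxycycline here are not stated by the labels. The arrays at each time are called the doxycycline, mutant and wild-type arrays. All 8 myoblast markers on the array had signal above the floor of 16.4 on at least 1 array. By that low bar, only 1 of 5 endothelial, 1 of 5 epithelial and 1 of 4 adipocyte markers stayed under the floor on all arrays. The summed myoblast signal was 2719 to 3449.4 at 24 h against 1975.9 to 2155 at 0 h. Not every marker ran with the sum. With wild-type p300, Myod1 read 419.1 at 24 h against 517.6 at 0 h, and Cav3 20.4 against 71.5. Of 7 macrophage and leukocyte markers on the array, 4 were under the floor on all arrays, among them Ptprc (CD45) at 1.7 to 15.9, while Cd14 (322.4 to 416.6), Cd68 (103.9 to 173) and Csf1r (35.2 to 76.9) were above it on all. The summed signal of that list was 508.7 to 601 at 24 h against 587.5 to 696.5 at 0 h. Of other cell types, the epithelial Cdh1 read 142.7 to 230.8, while Epcam, Krt8, Krt18 and Krt19 read at most 45.9. The endothelial Tek read 116.3 with wild-type p300 at 24 h and at most 19.5 elsewhere. Pecam1, Cdh5, Kdr and Vwf of the same list read at most 70.8. The adipocyte markers Adipoq, Pparg, Fabp4 and Retn read at most 73.9. The part of these signals of other cell types in the results was not tested. The trimmed mean signal was 199.34 to 199.96 on every array.

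Proteins marked for destruction carry ubiquitin, which an E1 activates, an E2 accepts and a ligase (E3) transfers to the substrate. Cullins are scaffolds of the largest ligase family, and F-box proteins pick substrates for the ligases built on Cul1. Deubiquitinases take ubiquitin off again. The 26S proteasome degrades the tagged proteins: its barrel, the 20S core, has outer rings of alpha subunits and inner rings of beta subunits, some of them proteolytic, and its 19S cap recognises, unfolds and threads the substrate with the help of ATPases. In skeletal muscle the system is best known for protein loss in atrophy, and in dividing cells for the timed destruction of mitotic regulators.

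Promoters of 4 genes that changed with time, 2 conjugating enzymes and 2 proteasome subunits, are given because they hold different ones of the motifs searched. The sequences are from RefSeq on mouse assembly GRCm38.p6, 5′ to 3′ on the gene's strand, from 250 bases before to 50 bases after the transcription start. They were searched on both strands for CCAAT, for TTTGAA and TTCGAA (forms of the cell cycle homology region), for TGACNNNGC (the core of the antioxidant response element) and for TTCNNNGAA (an interferon gamma activated site). Capitals mark every match.
Ube2c, chr2:164769679-164769978, plus strand: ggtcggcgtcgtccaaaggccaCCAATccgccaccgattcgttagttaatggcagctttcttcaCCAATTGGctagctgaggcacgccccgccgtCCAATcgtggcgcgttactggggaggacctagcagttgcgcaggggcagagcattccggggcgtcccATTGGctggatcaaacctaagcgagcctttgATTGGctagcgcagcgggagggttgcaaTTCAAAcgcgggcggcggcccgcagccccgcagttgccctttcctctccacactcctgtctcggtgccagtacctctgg
Ube2s, chr7:4812291-4812590, minus strand: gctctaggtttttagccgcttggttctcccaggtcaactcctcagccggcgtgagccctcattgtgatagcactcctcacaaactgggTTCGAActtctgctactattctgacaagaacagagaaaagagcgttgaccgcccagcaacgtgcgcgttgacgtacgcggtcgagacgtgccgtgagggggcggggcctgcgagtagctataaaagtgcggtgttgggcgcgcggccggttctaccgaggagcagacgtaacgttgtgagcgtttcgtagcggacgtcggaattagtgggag
Psmd14, chr2:61711444-61711743, plus strand: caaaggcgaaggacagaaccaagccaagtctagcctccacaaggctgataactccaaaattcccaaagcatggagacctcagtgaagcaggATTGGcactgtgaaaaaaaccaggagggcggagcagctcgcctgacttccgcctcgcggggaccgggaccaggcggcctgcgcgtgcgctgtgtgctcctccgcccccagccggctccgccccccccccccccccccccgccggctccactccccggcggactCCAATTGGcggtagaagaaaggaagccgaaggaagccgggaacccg
Psmb5, chr14:54617946-54618245, minus strand: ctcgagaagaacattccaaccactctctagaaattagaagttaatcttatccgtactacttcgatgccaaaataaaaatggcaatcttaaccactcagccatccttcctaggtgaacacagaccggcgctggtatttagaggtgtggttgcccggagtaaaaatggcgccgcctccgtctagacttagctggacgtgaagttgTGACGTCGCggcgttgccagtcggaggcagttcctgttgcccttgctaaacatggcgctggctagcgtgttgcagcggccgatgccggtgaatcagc
The Ube2c promoter holds 6 CCAAT matches, 2 of which overlap on opposite strands, and 1 TTTGAA on the minus strand 29 bases before the start. CCAAT was found in 37.4% and TTTGAA in 17.9% of all 32851 promoters, both together in 6.95%, and 6 or more CCAAT matches in 0.0791%. The Ube2s promoter holds TTCGAA, a palindrome present in 1.56% of all promoters, 162 bases before the start. The Psmd14 promoter has CCAAT matches 159 bases before and 5 and 8 bases after the start, the last pair overlapping. The Psmb5 promoter has TGACNNNGC 47 bases before the start; that motif was in 12.4% of all promoters. A match is a string of letters and not a site of binding. No motif searched was found for Psma4, Psmb4, Psmc5, Psmd5, Ube2b or Ube2h, which also changed with time. Of the 14 promoters of members that changed, 28.6% held CCAAT, a lower share than of all promoters. Each other motif marked in the sequences above was in 7.14% of the 14. That share exceeded the share of all promoters only for the palindrome of Ube2s.

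After 24 h in differentiation medium, 8 of the 32 tested genes of the proteasome core and cap fell, 0 rose, and 28 had a log2 change below 0. Of all 40 tested proteasome genes, 8 fell (20%), 0 rose and 32 were not called, with a call meaning an adjusted p under 0.05 in limma over all probe sets tested. Among all genes tested, 9.33% fell and 7.67% rose. The median log2 change was -0.24 for proteasome genes (interquartile range -0.31 to -0.08) and 0.01 for all genes. By contrast, the median was 0.02 for the 18 tested E2 genes (2 rose, 2 fell, 14 not called), 0.13 for the 15 ligase genes (0 called) and 0.06 for the 21 deubiquitinases (1 fell, 20 not called). In all, 11 of the 96 tested members fell and 2 rose. In bulk RNA, fewer cells of a kind and less RNA per cell cannot be told apart.

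**Figure D1:**
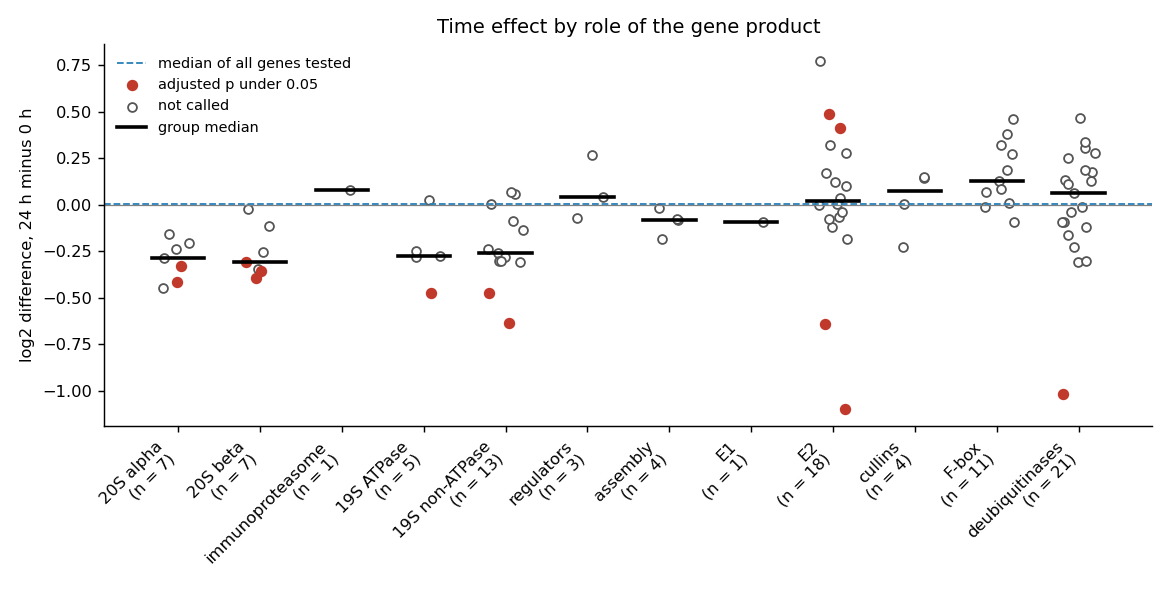
Log2 change in signal, 24 h minus 0 h averaged over the 3 treatments, by role, for each tested member except the partner protein Psme3ip1. Points are genes and the black bars are group medians. The 20S and 19S groups have medians between -0.31 and -0.26, while the regulators, E2 enzymes, ligases and deubiquitinases lie around 0, with Ube2c and Usp1 lowest.

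Called genes came from both core and cap. All 7 alpha genes and all 7 beta genes of the core had a log2 change below 0, and 2 alpha genes and 3 beta genes fell. Their medians were -0.29 and -0.31. The cap ATPases had a median of -0.28 over 5 tested genes, of which 1 fell, and the other cap subunits one of -0.26 over 13, of which 2 fell. The cap genes were grouped by symbol and so include Psmd5, Psmd9 and Psmd10, chaperones that help to assemble the cap. Without these, 7 of 29 core and cap genes fell, with a median of -0.28. In the other proteasome groups none was called: the median was 0.04 for the 3 regulators, -0.08 for the 4 core assembly chaperones (Psmg), and the only tested immunoproteasome subunit, Psmb10, changed by 0.08. The 3 arrays at 24 h all lay below the 3 at 0 h for 18 of the 40 proteasome genes (45%), all of them core or cap genes by symbol, against 15.7% of all genes. For all 3 at 24 h above all 3 at 0 h the proteasome count was 0, against 13.1% of all genes.

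Psmd14, the cap's metalloprotease that cuts ubiquitin chains from substrates, had the largest change among proteasome genes. Its signal was 495.3, 505.4 and 493.8 in the doxycycline, mutant and wild-type arrays at 24 h, against 713.3, 758.1 and 852.1 in the same treatments at 0 h. The groups did not overlap, and the log2 change was -0.63 ± 0.14 (SD, n = 3 treatments), adjusted p = 0.00323 in limma. Psmc5, one of the cap's ATPases, had 349.4, 354 and 397 at 24 h against 536.7, 496.9 and 491.9 at 0 h, a log2 change of -0.47 ± 0.16 (SD, n = 3; limma, adjusted p = 0.0171). Every array at 24 h was again below every array at 0 h. Psmd5, a chaperone that helps to assemble the cap's base, had 311.3, 526.7 and 398 at 24 h against 485.4, 631.8 and 567.9 at 0 h. It was lower at 24 h in each treatment, with a log2 change of -0.47 ± 0.19 (SD, n = 3; limma, adjusted p = 0.0196), although the mutant array at 24 h lay above the doxycycline array at 0 h.

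Among core subunits the alpha-ring gene Psma7 had 737.6, 827 and 712.2 in the doxycycline, mutant and wild-type arrays at 24 h against 931.2, 1079.8 and 1024.9 at 0 h. Its log2 change was -0.42 ± 0.10 (SD, n = 3; limma, adjusted p = 0.0163). Psma4, another alpha-ring subunit, had 602.5, 699.2 and 659.9 at 24 h against 772.8, 867.7 and 823 at 0 h. The 3 treatments moved nearly alike, with a log2 change of -0.33 ± 0.03 (SD, n = 3; limma, adjusted p = 0.0351). The structural beta subunit Psmb4 had 1307.2, 1676.7 and 1271.9 at 24 h against 1731, 2103.2 and 1734.9 at 0 h, a log2 change of -0.39 ± 0.06 (SD, n = 3; limma, adjusted p = 0.0180). Psmb3, also without catalytic activity, had 1107, 1284.4 and 1306.9 at 24 h against 1464.9, 1496 and 1605.9 at 0 h, with a log2 change of -0.31 ± 0.09 (SD, n = 3; limma, adjusted p = 0.0493). In Psma7, Psma4, Psmb4 and Psmb3 alike, every array at 24 h lay below every array at 0 h.

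Of the catalytic beta subunits, Psmb5 was called and Psmb6 and Psmb7 were not. Psmb5, the chymotrypsin-like subunit, had 641.2, 687.3 and 727.7 at 24 h against 825.9, 962.1 and 843.1 at 0 h (log2 change -0.35 ± 0.14, SD, n = 3; limma, adjusted p = 0.0370). A second Psmb5 probe set did not show this: it read 144.9, 102.8 and 139.2 at 24 h against 111.9, 112.5 and 128.1 at 0 h, a log2 change of 0.12. Psmb6, the caspase-like subunit, had 691.8, 1017.2 and 816.9 at 24 h against 1007, 1095 and 1072.4 at 0 h (-0.35 on the log2 scale; limma, adjusted p = 0.0576). Psmb7, the trypsin-like subunit, had 619, 751.5 and 669 at 24 h against 835.3, 856.1 and 737.5 at 0 h (-0.25; limma, adjusted p = 0.113). In both genes the mutant array at 24 h reached into the range of 0 h. The immunoproteasome replaces these subunits in cells exposed to interferon, and its Psmb8 and Psmb9 were under the floor on all 6 arrays, at 2.1 to 10.9 and 7.4 to 10.5. Usp18, the protease that removes Isg15, was likewise under the floor throughout, at 1.6 to 6.1.

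**Figure D2:**
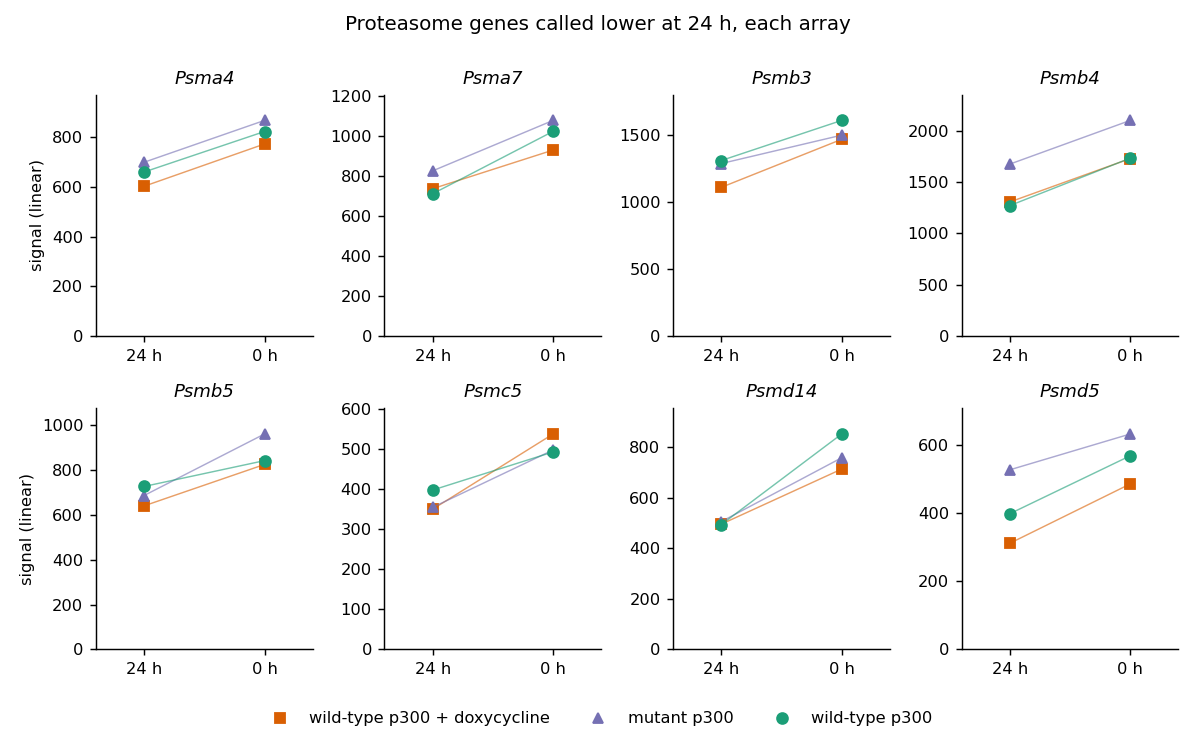
Signal (linear intensity, axes from 0) of the 8 proteasome genes called lower at 24 h, at 24 h and at 0 h, 1 point for each array, with lines joining the arrays of a treatment. All lines are lower at 24 h, and of the 8 genes Psmd5 alone has overlapping times.

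No gene of another cap was called with time. Psme1 encodes a subunit of the interferon-inducible 11S cap, and Psme3 the nuclear form of that cap, with log2 changes of 0.04 and -0.07. Psme4, the large single-chain activator PA200, had 765.9, 856.8 and 991.6 at 24 h against 646.8, 738.4 and 785.1 at 0 h. Its change of 0.27 was upward in every treatment but was not called (limma, adjusted p = 0.0740). The cap subunits Psmc4 and Psmd2 were under the filter on mean signal and were not tested.

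The largest falls among tested members were in enzymes with known roles in cell division and DNA repair. Ube2c, the E2 that starts ubiquitin chains for the anaphase-promoting complex, had 94.9, 71.4 and 90 in the doxycycline, mutant and wild-type arrays at 24 h, against 167.9, 169.7 and 209.7 at 0 h. It fell by 1.10 ± 0.24 on the log2 scale (SD, n = 3; limma, adjusted p = 0.00323) and the times did not overlap. Ube2s, which extends those chains, had 138.2, 149.1 and 133.1 at 24 h against 236.8, 274.1 and 160 at 0 h. The log2 change was -0.64 ± 0.33 (SD, n = 3; limma, adjusted p = 0.0278), smallest in wild-type p300, whose array at 0 h was low. Usp1, the deubiquitinase of FANCD2 and PCNA, had 160, 143.3 and 145.1 at 24 h against 297.3, 324.6 and 287 at 0 h (-1.02 ± 0.15, SD, n = 3; limma, adjusted p = 0.00116). Ube2t, the E2 of the Fanconi anaemia pathway, was under the filter, with 7.5, 18.9 and 9.3 at 24 h against 40.6, 67.1 and 39.2 at 0 h. With no filter its log2 change was -1.46 and was not called (limma, adjusted p = 0.121), but that fit called 0 of all probe sets with time.

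These enzymes sat among a wider fall of division genes. All 17 tested genes of a list of G2 and mitosis genes fell, with a median log2 change of -2.80, against 9.33% of all genes. That list was set with earlier results of these data known, so its count is no independent test. Cdc20, the activator of the anaphase-promoting complex, fell by 2.92 (limma, adjusted p = 2.05e-05). The part of this wider fall in the changes of Ube2c, Ube2s and Usp1 was not tested. Only Ube2c and Usp1 among the 96 tested members changed 2-fold or more (2.08%), against 3.65% of all genes.

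2 E2 genes rose. Ube2h, an E2 that acts with the CTLH ligase, had 484.8, 441.1 and 545.4 at 24 h against 379.5, 312.3 and 356.7 at 0 h, a log2 change of 0.49 ± 0.13 (SD, n = 3; limma, adjusted p = 0.0136). Its second probe set ran the same way, with 320, 371 and 417.2 at 24 h against 268.5, 300.2 and 251.7 at 0 h. Ube2b, a homologue of yeast Rad6, had 307.3, 378.8 and 387.7 at 24 h against 259.3, 278.1 and 266.7 at 0 h (0.41 ± 0.15, SD, n = 3; limma, adjusted p = 0.0381). In both genes every array at 24 h exceeded every array at 0 h. Ube2l6, the E2 for the ubiquitin-like Isg15, had 90.6, 76.2 and 138.2 at 24 h against 44.5, 58.4 and 73.9 at 0 h, a larger change of 0.77 ± 0.34 that just missed the threshold (SD, n = 3; limma, adjusted p = 0.0523). Ube2n, which builds chains linked through lysine 63, and Ube2d3, an E2 used by many ligases, changed by 0.04 and -0.04. A second Ube2d3 probe set changed by 0.44, so its probe sets disagreed. Uba3, the catalytic part of the Nedd8 E1, changed by -0.09 and was the only E1 tested.

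**Figure D3:**
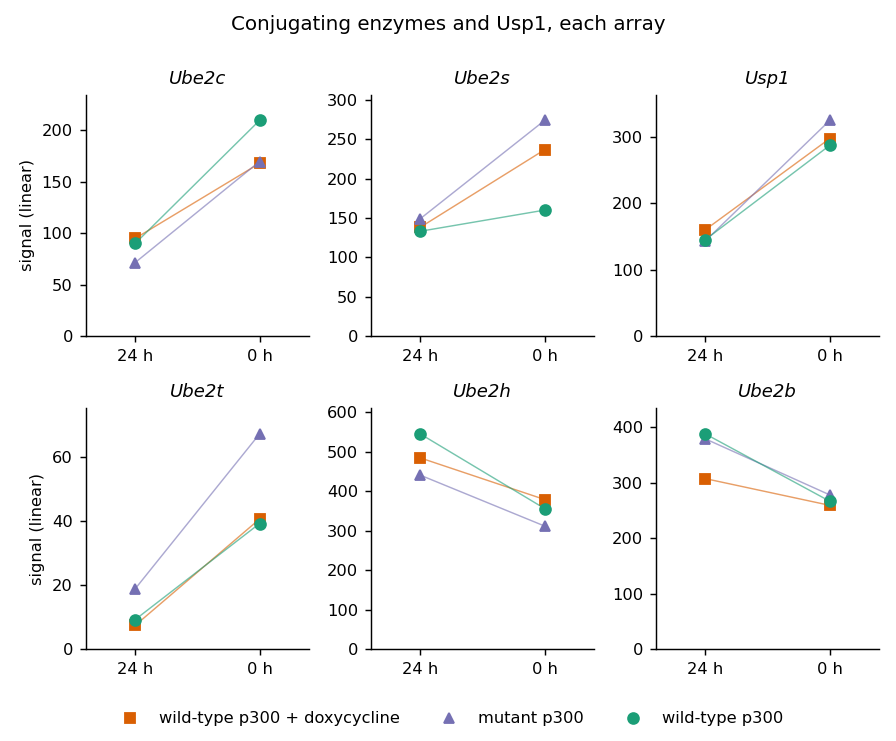
Signal (linear intensity) of ubiquitin enzymes at 24 h and 0 h, 1 point for each array and axes from 0, with lines joining the arrays of a treatment. Ube2c, Ube2s, Usp1 and the untested Ube2t are lower at 24 h and Ube2h and Ube2b higher, in all 3 treatments.

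No ligase component was called with time. Fbxo9, a substrate-binding F-box protein, had 144.4, 192.7 and 132.4 at 24 h against 104.2, 132.9 and 102.2 at 0 h (0.46; limma, adjusted p = 0.0684). Fbxw7, the F-box protein for cyclin E and Myc, had 116.4, 96.3 and 126.3 at 24 h against 79.8, 88.4 and 91.2 at 0 h (0.38; limma, adjusted p = 0.200). The scaffolds Cul1, Cul2, Cul3 and Cul4a changed by 0.00, -0.23, 0.15 and 0.15. Among the other deubiquitinases Usp38 had 154.7, 164.3 and 118.2 at 24 h against 108.3, 109.4 and 96.1 at 0 h (0.47; limma, adjusted p = 0.0805). Usp14, which is bound to the proteasome, and Usp7, which acts on Mdm2 and p53, changed by -0.09 and -0.01, and Usp2 by 0.18.

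The other genes of the pathway were read from a separate list. Of 54 such genes on the array 49 were tested, with a median of -0.04. The ligase Nedd4 (0.33) and the ubiquitin-like Ubl3 (0.34) rose. Another 6 fell: Cdc20, the anaphase-promoting complex subunits Anapc1 (-0.51) and Anapc5 (-0.34), the signalosome subunit Cops6 (-0.31), the chaperone-linked ligase Stub1 (-0.44) and the ubiquitin-like modifier Ufm1 (-0.46). Of 5 tested muscle atrophy genes, Map1lc3b (0.36) and Gabarapl1 (0.53), both of autophagosomes, rose. Of 10 tested interferon and antigen presentation genes, 0 rose and 1, Ifi204, fell. Among all genes tested, 7.67% rose and 9.33% fell with time, and no list was tested against these shares. None of the 49 pathway genes was called in any outcome comparison, against at most 0.83% of all genes.

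The time counts rest on 3 pairs of arrays. Because treatment is a block, leaving out 1 array also removes its partner from the estimate of time. The 11 members that fell became 3 when the 0 h array of either doxycycline or mutant p300 was left out. They became 4 when the 24 h array of doxycycline was left out and 3 when that of mutant p300 was, and 12 when either wild-type array was. Psmd14, Ube2c and Usp1 were called in each of these fits. Calls over all probe sets moved the same way. They were 464 to 594 without a doxycycline or mutant array, and 1226 and 1235 without a wild-type array. With all arrays kept, 559 of all probe sets fell and 450 rose. With no filter on signal, 0 members were called with time, and 0 of all probe sets. Of 32 members with more than 1 probe set, 19 had more than 1 tested, and in 8 of these the time changes differed in sign between probe sets (Fbxo3, Fbxw4, Fbxw11, Psmb5, Psmc3, Psmg3, Ube2d3 and Usp15).

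The second question was whether members differed between the treatments that end in death and the one that ends in survival. The difference was taken as the mean of the doxycycline and mutant arrays minus the wild-type array. At 24 h 0 of 96 members were called, against 0.83% of all genes, and at 0 h 0 were called, against 0% of all genes. Over both times together 0 members were called, against 0.56%, and 0 for the interaction of outcome with time, against 0%. At an unadjusted p under 0.05 the counts were 4 higher and 0 lower at 24 h, 1 and 0 at 0 h, 7 and 4 over both times, and 0 and 0 for the interaction. The same threshold took in 5.81% of all genes as higher and 5.97% as lower at 24 h, 1.76% and 2.72% at 0 h, 6.86% and 7.09% over both times, and 1.49% and 1.74% for the interaction, so the members' counts lay near or below these shares. Medians at 24 h were 0.01 for proteasome genes, -0.12 for E2 genes, 0.18 for ligases and 0.07 for deubiquitinases, beside 0.05 for all genes.

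**Figure D4:**
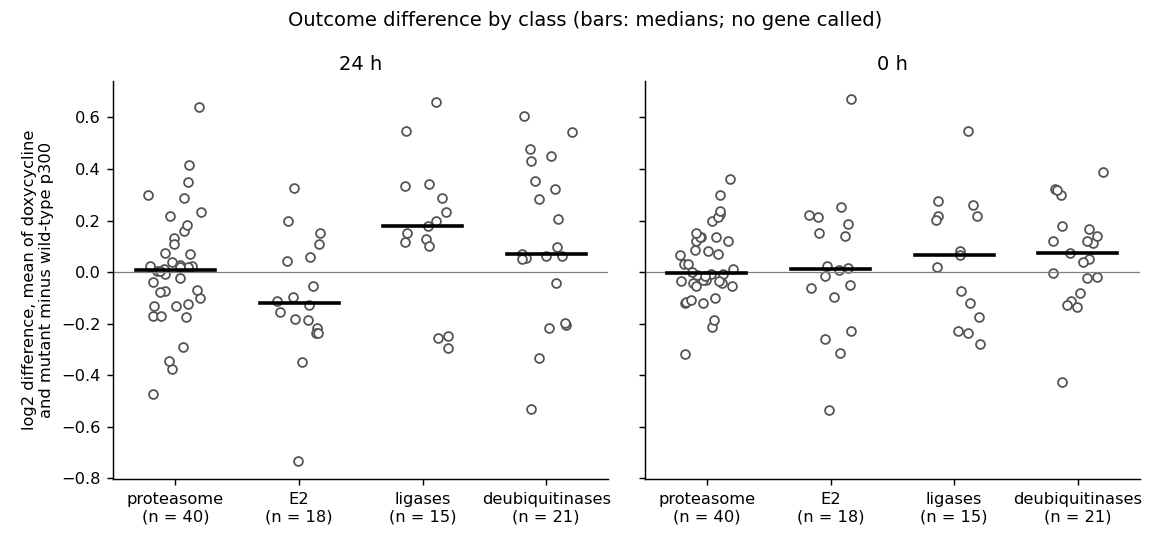
Log2 difference, mean of the doxycycline and mutant arrays minus the wild-type array, at 24 h and 0 h, by class. Points are the tested proteasome, E2, ligase and deubiquitinase members, and bars are class medians. Proteasome genes centre on 0 at both times (medians 0.01 and -0.00), and no gene was called.

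Psme1 had the largest upward difference in the proteasome. Its signal was 350.7 in the doxycycline array and 362.1 in the mutant array at 24 h, against 228.5 in the wild-type array; at 0 h it was 364.9 and 288.7 against 252.8. Both wild-type arrays were the lowest, but the difference at 24 h of 0.64 ± 0.21 (SE) was not called (limma, adjusted p = 0.277). Psmd8, a subunit of the cap's lid, ran the other way, with 467.6 and 553.9 in doxycycline and mutant arrays at 24 h against 705.9 in wild type, and 460.7 and 601 at 0 h against 656.1. Its difference at 24 h was -0.47 ± 0.21 (SE; limma, adjusted p = 0.452). Psmb10, the immunoproteasome counterpart of Psmb7, had 173.8 and 157.6 against 129.9 at 24 h and 179 and 133.7 against 125.7 at 0 h, a small gap of 0.35 at 24 h (limma, adjusted p = 0.713).

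In other classes, Ube2l6 was lower with doxycycline and mutant p300 within each time, with 90.6 and 76.2 against 138.2 at 24 h and 44.5 and 58.4 against 73.9 at 0 h. The difference at 24 h was -0.73 ± 0.39 (SE; limma, adjusted p = 0.529). Cul2, the scaffold of the Vhl ligase, had 406.5 and 364.1 against 263.3 at 24 h, and 416.5 and 418.2 against 358.6 at 0 h (0.55 ± 0.18 at 24 h, SE; limma, adjusted p = 0.288). The F-box gene Fbxo21 had 108.3 and 142.5 against 78.7 at 24 h and 116.6 and 105 against 75.7 at 0 h (0.66 ± 0.32, SE; limma, adjusted p = 0.499). Usp15, a deubiquitinase that acts on TGF-beta signalling, had 233.3 and 236.2 against 154.2 at 24 h and 235 and 257.8 against 197 at 0 h (0.61 ± 0.21, SE; limma, adjusted p = 0.303). Wild-type arrays were the lowest of all 6 for Cul2, Fbxo21 and Usp15. A second tested Usp15 probe set did not show this. It read 159.7 and 67.9 against 104 in wild type at 24 h, and 74 and 92.2 against 113.4 at 0 h. Usp33 had 130.3 and 130.9 against 89.5 at 24 h and 115 and 162.3 against 104.5 at 0 h, a difference of 0.55 at 24 h. Usp2 was lower, with 91.9 and 117.2 against 150 at 24 h and 84.3 and 105 against 126.4 at 0 h, a difference of -0.53 at 24 h. At 0 h the largest difference among tested members was that of Ube2s, 236.8 and 274.1 with doxycycline and mutant p300 against 160 with wild type, 0.67 on the log2 scale (limma, adjusted p = 0.999).

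Counting arrays without a fit, 14 members had all 4 doxycycline and mutant arrays above both wild-type arrays (14.6%), against 9.77% of all genes, and 3 had them all below (3.12%), against 7.34%. The 14 were Psmb10, Psmd9, Psme1, Cul2, Fbxo6, Fbxo21, Fbxo38, Fbxo45, Usp7, Usp9x, Usp15, Usp19, Usp33 and Usp34: 3 proteasome genes, 0 E2 genes, 5 ligases and 6 deubiquitinases. Usp9x, Usp15, Usp19 and Usp34 each had a second tested probe set that did not show this pattern. No other of the 14 had a second tested probe set. The 3 lower ones were Psmd8, Usp2 and Usp14. The actin 3′ to 5′ signal ratio, a measure of RNA integrity, was 1.45 in the doxycycline array and 1.49 in the mutant array at 24 h against 1.33 in wild type, and 1.30 to 1.34 at 0 h. Its part in these differences was not tested. Averaged over 9 spike-in controls, log2 signal minus its mean over the arrays was 0.13 with doxycycline and 0.23 with mutant p300 at 24 h against -0.18 with wild type. Scaling to them moved the median outcome difference of all genes at 24 h to -0.31, against 0.05 without it, and called 6.82% of all genes lower. Among those were Psma6 (-0.74) and Psmd8 (-0.84), which shifted with all genes. Among tested members, the largest interactions of outcome with time in the proteasome, E2, ligase and deubiquitinase classes were those of Psmd7 (-0.48), Ube2s (-0.56), Cul4a (0.43) and Usp24 (0.48), with an adjusted p of 1 in limma for each.

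**Figure D5:**
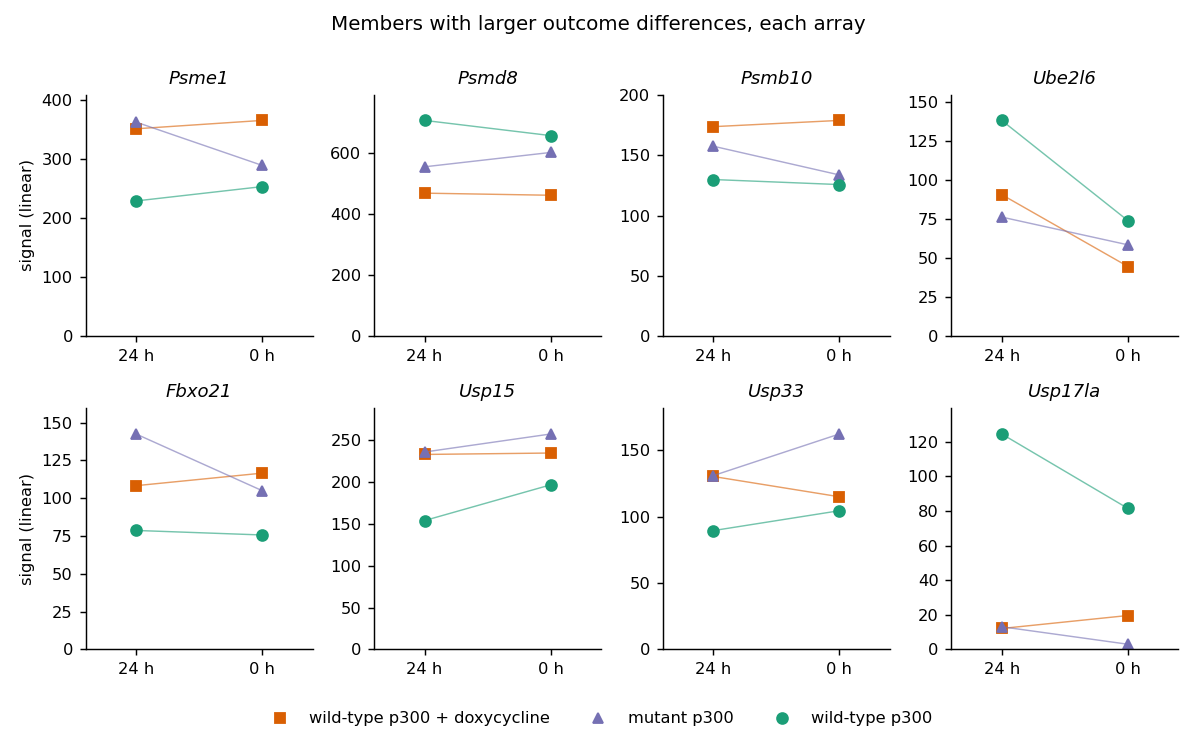
Signal (linear intensity, axes from 0) of members picked for display, at 24 h and at 0 h. They are not strictly those with the largest outcome differences. Each array is 1 point, and lines join the arrays of a treatment. Psme1, Psmb10, Fbxo21, Usp15 and Usp33 are lowest in the wild-type arrays and Psmd8 and Usp17la highest, while for Ube2l6 the wild-type array at 0 h lies below both others at 24 h.

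Usp17la, of a multicopy deubiquitinase family whose probe sets may share signal, fell below the filter and was picked out after its values were seen. It read 12.1 and 13.1 in doxycycline and mutant arrays at 24 h against 124.4 in wild type, and 19.6 and 3 at 0 h against 81.4. Both wild-type arrays stood above all others. Because most of the other values lay under the floor, no difference or test is given.

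The doxycycline and mutant arrays, which share an outcome, were set side by side without a test, with 1 array of each at a time. Proteasome genes were lower in the doxycycline array in 31 of 40 cases at 24 h (77.5%) and in 31 of 40 at 0 h, against 49.7% and 49.8% of all genes. The median difference was -0.16 at 24 h and -0.13 at 0 h on the log2 scale. Psmd7, a lid subunit that pairs with Psmd14, had 567.7 in the doxycycline array at 24 h against 908.2 in the mutant array, and 923 against 1058.3 at 0 h. Psma6, of the alpha ring, had 1470.2 against 1758.3 at 24 h and 2131 against 1895.1 at 0 h, so that its order turned between the times.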

How the data were processed

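The deposited table gives signal as linear intensity for 12488 probe sets on 6 arrays, without detection calls. The submitters' processing notes name MAS5 (version and settings not given in the sources). After 66 control probe sets were left out, probe sets with a mean signal at or above the median (75.2) were tested, 6212 in all. Signals under the 25th percentile (16.4) were raised to that floor before taking log2. R 4.3.3 with limma 3.58.1 (moderated 2-sided test, variance trend) gave p-values, adjusted over all 6212 by Benjamini-Hochberg and called under 0.05. Time was fitted with treatment as a block (2 residual degrees of freedom). Outcome at each time and the interaction used 1 mean for each outcome and time (2), where the lone wild-type array is assumed to vary like the others, and outcome over both times had time as a term (3). The labels name no separate cultures within a treatment and time, and the p-values reflect only how far these arrays vary, which may be technical. Named genes were the called members with the largest changes in each class, or else the 2 with the largest differences. In addition, 35 genes were fixed by name, of which 26 were on the array and 22 tested. Psma4, Psma6, Psmb3, Psmb4, Psme4, Ube2t and Usp17la were described outside this rule. The member rule uses gene names only, but it and the gene lists were set with earlier results of these data known. Promoters were found for 88 of the 115 members.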

Additional observations from a re-analysis of the deposited data

Results flagged for a closer look

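Psmd7, Ube2a and Cul4a had log2 changes with time of one sign in both doxycycline and mutant p300 and of the other sign in wild-type p300. They were the genes with this pattern among those named for the interaction. It occurred in 9 of 96 tested members (9.38%), the others being Psmb2, Psmc3, Psmd4, Ube2v2, Usp7 and Usp22, and in 17.7% of all genes. The log2 change of Psmd7 was -0.701 with doxycycline and -0.221 with mutant p300, against 0.0193 with wild-type p300, where the signal hardly differed between the times. That of Ube2a was -0.158 and -0.242, against 0.204, and that of Cul4a was 0.361 and 0.224, against -0.141. The opposite directions themselves were not tested beyond the interaction of outcome with time, which called none of the 3 (limma, adjusted p = 1 for each). Wild-type p300 has 1 array at each time.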

How the results depend on the processing

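Of the 96 tested members, 11 fell and 2 rose with time, and 8 of the 11 were proteasome genes. With no filter the counts that fell, rose and fell in the proteasome were 0, 0 and 0; with scaling to the spike-in controls 5, 0 and 2; with no variance trend 3, 3 (Fbxo9, Ube2h and Ube2l6) and 1; with no treatment block 4, 0 and 2. The same fits called 0, 620, 699 and 514 of all probe sets with time, in that order. Without any of these changes, 559 of all probe sets fell and 450 rose. A filter at the 75th percentile gave 13 proteasome genes that fell, and plain _at probe sets 4 members that rose. Of all probe sets, 793 and 867 were called in these. Leaving out 1 array gave 3 to 12 that fell, 0 to 2 that rose and 1 to 9 proteasome genes that fell. Those fits called 464 to 1235 of all probe sets. The proteasome median of -0.24 became -0.36 with spike-in scaling, which moved the median of all genes to -0.12. Psmd14 kept its call in 15 of 16 alternatives, Usp1 in 14 of 15 and Ube2c in 13 of 14. Psmb3, Psmb5 and Ube2b kept theirs in 6 of 16. These totals count each left-out array separately, although the 2 fits without an array of the same treatment rest on the same pairs of arrays. With plain _at probe sets only, Psmb5 reversed to 0.12 (limma, adjusted p = 0.664) and Ube2d3 to 0.44 (0.0494). For outcome at 24 h, no filter called 2 members (Usp17la and Usp29, whose doxycycline and mutant values at 24 h all lie at the floor, so that their spread is set by the floor and the calls are no test) and 1, Usp29, for the interaction; spike-in scaling called 2 (Psma6 and Psmd8), with the median of all genes moved to -0.31 and 6.82% of them called lower. Leaving out 1 array gave 0 to 1: without the mutant array at 24 h, Psmd7 was called (-0.68) between a single doxycycline and a single wild-type array, with the spread of the arrays at 0 h assumed for both, and 3.78% of all genes were called lower. Outcome at 0 h and over both times stayed at 0 in every alternative run. The causes were not tested. The time fit pairs the arrays of each treatment, and the fit without that block is the one given above. The labels give no replicate numbers to pair arrays otherwise. Wild-type arrays could not be left out of outcome at their own time.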
